A study of Mus musculus with 8 samples.

Results

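H3K27Ac was examined at *Scn3b*, *Scn10a* and *Scn4b*, 3 voltage-gated sodium channel genes that all lie on mouse chromosome 9. A peak was counted for a gene when its centre lay nearer to a curated RefSeq transcription start of that gene than to the start of any other gene. By this rule 3 of the 45987 peaks belonged to the 3 genes, and all 3 belonged to *Scn3b*. *Scn10a* and *Scn4b* were the nearest gene of 0 peaks each. The libraries came from ventricles of mice at postnatal day 7. Control mice carried 2 floxed *Arid1a* alleles (Arid1a f/f), with no Cre listed, and *Arid1a cKO* littermates carried the same alleles together with aMHC-Cre, a transgene driven by the alpha myosin heavy chain promoter that is active in cardiomyocytes and is not directed at the other cells of the ventricle. Each genotype gave 2 libraries with an antibody against H3K27Ac, the acetylated histone mark of active promoters and enhancers, and 2 input libraries without antibody. The deposited table holds the mean of the 2 libraries of each group and 0 columns of per-sample values, so every level below is the authors' group mean, without an error between replicates, and no difference was tested. The depth of each library is unknown.

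Voltage-gated sodium channels open when a cell depolarises and carry the fast inward current of the upstroke of the action potential in working and conducting cardiomyocytes. A channel consists of a large pore-forming alpha subunit and smaller beta subunits, which are single-pass membrane proteins that change gating, surface expression and adhesion of the channel. *Scn10a* encodes an alpha subunit best known from sensory neurons of pain pathways, and its locus has been associated with cardiac conduction in humans. *Scn3b* and *Scn4b* encode beta subunits, and human variants of both have been linked to arrhythmia.

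The 3 genes have the following places in mm10. *Scn3b* runs from 40269216 to 40291618 on the plus strand, with 4 curated transcripts that share 1 start. *Scn4b* runs from 45138624 to 45154155 on the plus strand, with 1 curated transcript. *Scn10a* runs from 119608456 to 119719322 on the minus strand, and its 2 curated transcripts start at 119719032. None of the 3 starts lay under a peak, whereas 11973 of the 21000 protein-coding genes with a curated start (57.0%) had a peak over at least 1 start. The gap from the start to the nearest edge of a peak was 15.2 kb for *Scn3b*, 74.7 kb for *Scn10a* and 82.7 kb for *Scn4b*. A gap at least as large was found for 32.0%, 18.0% and 17.1% of the protein-coding genes, respectively, and 37.2% of them were the nearest gene of 0 peaks. The table lists only regions called in at least 2 libraries, so a start without a peak may still carry acetylation below the level of calling.

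The sequences at the centre of the peaks that the results turn on are printed here, to show what lies under the acetylated regions of *Scn3b* and of the *Scn10a* locus. Each is the central 300 bp of the peak on the plus strand of mm10, read from the RefSeq copy of GRCm38. Capitals mark matches, on either strand, to 6 motifs. The ESRR half-site of estrogen-related receptors was searched as AAGGTCA. The TEAD core was searched as CATTCC. The T-box core was AGGTGT. The GATA core was AGATAA. The E-box, of the kind bound by ZEB factors, was CAGGTG, and it can share letters with the T-box core. MEF2 denotes the core bound by MEF2 factors.
*Scn3b* peak 27.2 kb upstream (chr9:40241884-40242183): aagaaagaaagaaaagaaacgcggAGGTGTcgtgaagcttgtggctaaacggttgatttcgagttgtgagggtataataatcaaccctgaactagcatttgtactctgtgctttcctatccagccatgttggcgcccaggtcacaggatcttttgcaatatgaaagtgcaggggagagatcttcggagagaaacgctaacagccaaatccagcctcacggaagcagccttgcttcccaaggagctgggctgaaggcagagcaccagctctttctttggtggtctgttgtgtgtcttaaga
*Scn3b* peak 19.9 kb upstream (chr9:40249164-40249463): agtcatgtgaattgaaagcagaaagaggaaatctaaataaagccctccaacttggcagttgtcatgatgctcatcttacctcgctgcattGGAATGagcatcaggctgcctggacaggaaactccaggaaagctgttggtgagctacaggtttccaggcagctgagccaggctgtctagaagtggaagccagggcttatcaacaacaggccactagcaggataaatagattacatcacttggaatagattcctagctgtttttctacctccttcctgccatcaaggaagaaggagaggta
*Scn3b* peak 16.7 kb upstream (chr9:40252415-40252714): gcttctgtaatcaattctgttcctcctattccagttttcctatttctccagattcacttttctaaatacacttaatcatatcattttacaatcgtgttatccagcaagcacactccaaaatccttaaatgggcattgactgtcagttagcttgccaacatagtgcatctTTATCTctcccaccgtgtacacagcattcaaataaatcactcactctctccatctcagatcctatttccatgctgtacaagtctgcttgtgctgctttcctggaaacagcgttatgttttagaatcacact
*Scn10a* intron peak (chr9:119632687-119632986): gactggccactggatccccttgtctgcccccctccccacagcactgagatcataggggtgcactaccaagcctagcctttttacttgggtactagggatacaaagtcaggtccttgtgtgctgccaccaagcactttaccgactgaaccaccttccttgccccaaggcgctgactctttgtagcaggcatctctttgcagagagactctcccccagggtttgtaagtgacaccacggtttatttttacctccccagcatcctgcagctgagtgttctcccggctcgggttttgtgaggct
*Scn11a* intron peak (chr9:119794497-119794796): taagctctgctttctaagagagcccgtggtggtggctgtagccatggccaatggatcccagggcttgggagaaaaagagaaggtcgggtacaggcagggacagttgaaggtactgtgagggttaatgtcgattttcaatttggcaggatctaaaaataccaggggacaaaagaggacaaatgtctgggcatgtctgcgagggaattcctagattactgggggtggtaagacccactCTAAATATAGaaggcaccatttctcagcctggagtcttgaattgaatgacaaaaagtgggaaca

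The 3 *Scn3b* windows held 1 match each, and the motif differed between them. The window 27.2 kb upstream held a T-box match, a sequence found in 12.8% of the central windows of all 45980 peaks with an annotated start. The window 19.9 kb upstream held a TEAD match, found in 16.7% of all windows, and the window 16.7 kb upstream a GATA match, found in 13.4%. Over their whole length, each of the 3 *Scn3b* peaks held T-box and GATA matches, and the peak nearest to the start also held 3 ESRR matches. The whole peak 19.9 kb upstream held 3 TEAD matches, 1.83 per kb against 0.612 per kb over all peaks. The whole peaks 27.2 and 16.7 kb upstream held 0 TEAD matches each. Of all whole peaks, 61.3% held a T-box, 60.1% a GATA, 36.6% an ESRR, 65.4% a TEAD and 69.3% an E-box match. The *Scn11a* window held 1 match to the MEF2 core, which lay in 1.63% of all windows. The *Scn10a* intron window held 0 matches to the 6 motifs, and the whole *Scn10a* intron peak held 2 TEAD, 3 T-box, 3 GATA and 1 E-box match. A match describes the letters of the window and does not show binding.

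Promoter sequences of RefSeq (GRCm38.p6), from 250 bases before to 50 after the start, matched 2 of the 3 genes, *Scn10a* and *Scn4b*. They are shown because neither promoter lay under a peak. Each is printed in the direction of transcription, with the same capitals.
*Scn10a* promoter, minus strand (chr9:119718983-119719282): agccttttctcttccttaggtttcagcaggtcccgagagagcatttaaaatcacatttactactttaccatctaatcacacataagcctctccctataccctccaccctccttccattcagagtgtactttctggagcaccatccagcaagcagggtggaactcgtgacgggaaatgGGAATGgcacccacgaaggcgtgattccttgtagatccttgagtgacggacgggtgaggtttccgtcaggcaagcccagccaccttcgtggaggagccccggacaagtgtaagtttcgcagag
*Scn4b* promoter, plus strand (chr9:45138374-45138673): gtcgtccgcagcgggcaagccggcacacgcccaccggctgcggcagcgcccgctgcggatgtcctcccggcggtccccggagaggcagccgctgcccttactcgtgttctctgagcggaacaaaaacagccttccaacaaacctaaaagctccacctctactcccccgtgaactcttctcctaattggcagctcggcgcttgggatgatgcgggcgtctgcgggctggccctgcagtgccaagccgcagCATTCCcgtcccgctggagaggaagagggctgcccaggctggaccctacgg
The *Scn4b* promoter had 66.3% G and C and the *Scn10a* promoter 51.7%. Each held 1 TEAD match and no match to the other motifs, and 14.7% of all 32851 RefSeq promoter windows held a TEAD match.

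H3K27Ac upstream of *Scn3b* had nearly the same group means in *Arid1a cKO* and control hearts at 2 of its 3 peaks and a lower mean in *Arid1a cKO* at the other. All 3 peaks lay between genes, upstream of the start, and covered no annotated exon. The strongest peak, on chromosome 9 from 40251094 to 40254034 and 16.7 kb from the start, had 108 normalized reads in control hearts and 108 in *Arid1a cKO*, a log2 difference of 0.00. The middle peak, from 40248493 to 40250134 and 19.9 kb from the start, had 48.8 normalized reads in control hearts and 54.9 in *Arid1a cKO*, a log2 difference of 0.17. The weakest and narrowest peak, from 40241705 to 40242362 and 27.2 kb from the start, had 23.4 normalized reads in control hearts and 14.2 in *Arid1a cKO*, a log2 difference of −0.72. Of these 3 peaks, 0 were at least 2-fold lower and 0 at least 2-fold higher in *Arid1a cKO*. Over all 45987 peaks, the group mean in *Arid1a cKO* was at least 2-fold lower at 10.6% and at least 2-fold higher at 4.57%, and the median log2 difference was 0.01. With a limit of 1.5-fold, 1 of the 3 *Scn3b* peaks was lower and 0 were higher, beside 17.3% and 12.0% of all peaks. With a limit of 4-fold, 0 of the 3 were lower or higher, beside 3.77% and 0.65% of all peaks. In whole ventricles, fewer cells of a type and less acetylation per cell cannot be told apart.

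Among peaks of similar strength, the weakest *Scn3b* peak stood toward the lower end. Of the 9163 peaks whose mean over both groups lay within 0.5 log2 units of it, 20.9% had a lower difference. The same share was 47.0% for the strongest *Scn3b* peak and 61.1% for the middle one. Per kb of peak, the 3 *Scn3b* peaks had 35.6, 29.7 and 36.9 normalized reads in controls, in order from the most distant to the nearest, against a median of 24.1 over all peaks. In *Arid1a cKO* they had 21.6, 33.5 and 36.9 per kb. In *Arid1a cKO* the most distant peak was the least dense of the 3. Summed over its 3 peaks, *Scn3b* had 181 normalized reads in control hearts and 178 in *Arid1a cKO*, a log2 ratio of −0.02.

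**Figure D1:**
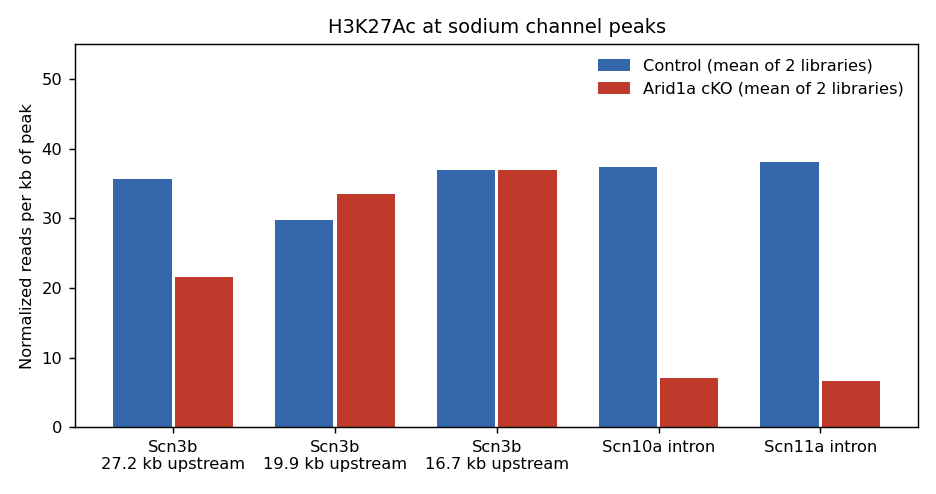
Bars give the authors' group means in normalized reads per kb of peak (vertical axis) in controls and *Arid1a cKO* for the 3 *Scn3b* peaks and for the peaks in introns of *Scn10a* and *Scn11a*; no error bars can be drawn from group means. The 5 peaks had 29.7 to 38.0 reads per kb in controls, and in *Arid1a cKO* the intron peaks had 7.13 and 6.62.

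*Scn10a* was the nearest gene of no peak, but the peaks on either side of its start had lower group means in *Arid1a cKO*. The gene body overlapped 1 peak, on chromosome 9 from 119631446 to 119634227, whose centre lay in an intron 86.2 kb downstream of the *Scn10a* start and nearer to the start of another gene. It also covered 3 annotated *Scn10a* exons. This peak had 104 normalized reads in control hearts and 19.8 in *Arid1a cKO*, a 5.24-fold lower mean and a log2 difference of −2.39. Upstream of *Scn10a*, the nearest peak lay 75.6 kb away, from 119793712 to 119795581, with its centre in an intron of *Scn11a* and 30.8 kb from the *Scn11a* start. *Scn11a* encodes another alpha subunit of sensory neurons. The peak had 71.0 normalized reads in control hearts and 12.4 in *Arid1a cKO*, a 5.74-fold lower mean and a log2 difference of −2.52. In controls both intron peaks were somewhat denser than the *Scn3b* peaks, at 37.4 and 38.0 normalized reads per kb, and in *Arid1a cKO* they had 7.13 and 6.62. Of the 7978 peaks of similar strength, 1.75% had a lower difference than the *Scn10a* intron peak. For the *Scn11a* peak the share was 2.12% of 8624 peaks. The next described peak upstream, 176 kb from the *Scn10a* start and at the start of *Wdr48*, had 111 normalized reads in control hearts and 102 in *Arid1a cKO*. The other 4 peaks within 200 kb of the *Scn10a* start are not described here.

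*Scn4b* lay in a stretch with few peaks. The nearest peak upstream was 83.3 kb from the *Scn4b* start and the nearest downstream 108 kb, and no peak overlapped the gene body. Within 200 kb of the start lay 6 peaks, with log2 differences from −0.66 to 0.80, of which 0 were at least 2-fold lower or higher. The upstream peak covered the start of *Mpzl3* and had 18.0 normalized reads in control hearts and 31.3 in *Arid1a cKO*. The nearest downstream peak, in *BC049352*, had 64.4 normalized reads in control hearts and 86.2 in *Arid1a cKO*.

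**Figure D2:**
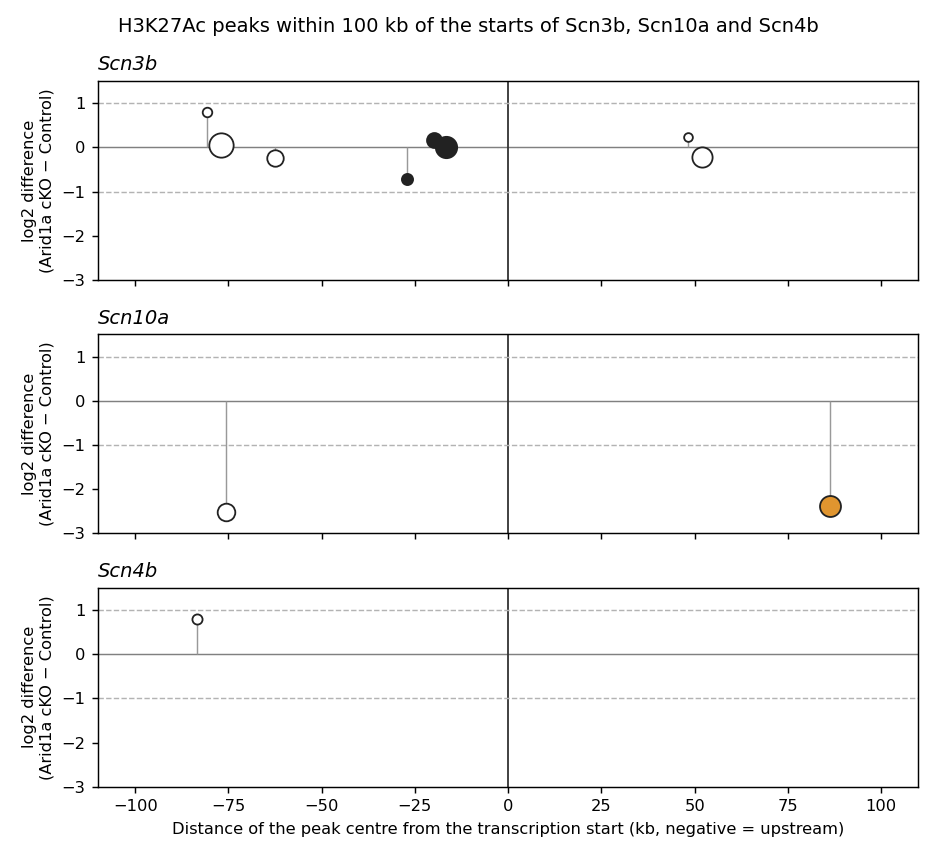
The 3 panels plot each peak within 100 kb of the start of *Scn3b* (8 peaks), *Scn10a* (2 peaks) and *Scn4b* (1 peak) by the distance of its centre from the start in kb (horizontal axis) and the log2 difference of the group means (vertical axis), with the area of a circle growing with the control reads. Black circles are peaks whose nearest start is that of the gene, the orange circle overlaps the body of *Scn10a*, white circles belong to other genes, and dashed lines mark a 2-fold difference, which only the 2 peaks in the *Scn10a* panel pass.

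Downstream of *Scn3b*, the acetylation of the next gene had lower group means in *Arid1a cKO* over its part distant from *Scn3b*. *Gramd1b* encodes a protein that carries cholesterol from the plasma membrane to the endoplasmic reticulum, and was the nearest gene of 11 peaks, of which 8 were at least 2-fold lower and 0 at least 2-fold higher, beside 10.6% and 4.57% of all peaks. Its 3 peaks nearest to the *Scn3b* start, at 48.3, 52.1 and 146 kb, had log2 differences of 0.24, −0.21 and −0.37. The 8 *Gramd1b* peaks from 152 kb on were each at least 2-fold lower, and 5 of them lay within 200 kb of the *Scn3b* start. The peak 152 kb downstream had 23.3 normalized reads in control hearts and 0.946 in *Arid1a cKO*, and that at 157 kb had 49.5 and 1.42. The peak at 169 kb had 77.7 normalized reads in control hearts and 0.946 in *Arid1a cKO*, and that at 192 kb had 24.3 and 0.946. Since a mean at or under 3 normalized reads was taken as a floor, these 4 peaks were at least 7.75-, 16.5-, 25.9- and 8.08-fold lower, against 3 reads as the mean of the group. The peak at 187 kb, at a *Gramd1b* start, had 83.3 normalized reads in control hearts and 28.1 in *Arid1a cKO*. The 3 *Gramd1b* peaks beyond 200 kb had log2 differences of −1.19, −2.53 and −2.06, the second with 2.36 reads in *Arid1a cKO*, under the floor, and so at least 4.55-fold lower. On the other side of *Scn3b*, *Zfp202*, a zinc finger gene, had 2 peaks with log2 differences of 0.06 and −0.23. In all, 5 of the 15 peaks within 200 kb of the *Scn3b* start were at least 2-fold lower, against 10.6% of all peaks, and the 3 *Scn3b* peaks were not among them.

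**Figure D3:**
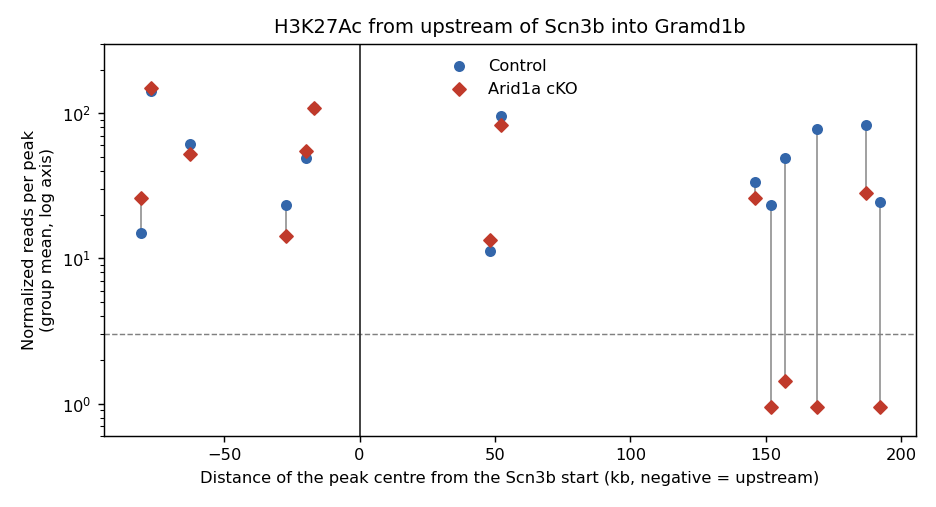
Each peak from 100 kb upstream to 200 kb downstream of the *Scn3b* start is plotted by the distance of its centre from the start in kb (horizontal axis) and its normalized reads as a group mean on a log axis (vertical axis), with controls as blue circles and *Arid1a cKO* as red diamonds; where only a diamond shows, both means are equal or nearly so. The *Scn3b* peaks lie between 27.2 and 16.7 kb upstream, and 4 of the *Gramd1b* peaks beyond 150 kb lie under the dashed line at 3 reads in *Arid1a cKO*.

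Other sodium channel genes, taken by their gene symbols, had few and mostly weak peaks. Of 10 further genes with such symbols, 4 were the nearest gene of at least 1 peak, with 7 peaks between them. The *Scn11a* peak described above was the only one at least 2-fold lower (14.3%, against 10.6% of all peaks), and 0 were at least 2-fold higher (against 4.57% of all peaks). *Scn4a*, the alpha subunit of skeletal muscle, had 3 peaks with a summed 121 normalized reads in control hearts and 118 in *Arid1a cKO*. The log2 differences of these peaks were −0.34, 0.43 and 0.57. *Scn7a*, whose product senses sodium in glia and neurons, had 2 peaks. Their summed normalized reads were 30.9 in control hearts and 32.3 in *Arid1a cKO*, with log2 differences of 0.61 and −0.63 in opposite directions. The densest *Scn4a* peak had 36.1 normalized reads per kb in controls, within the 29.7 to 36.9 of the *Scn3b* peaks, and its other 2 had 10.3 and 13.2.

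Genes whose products bind, anchor or modify cardiac sodium channels were compared with the channel genes. Of 21 such partner genes, 19 were the nearest gene of 129 peaks, of which 18 were at least 2-fold lower (14.0%, against 10.6% of all peaks) and 8 at least 2-fold higher (6.2%, against 4.57%). The median log2 difference of these peaks was −0.04. Where both group means were above 3 normalized reads, the most different partner peak lay at *Nedd4l*, a ubiquitin ligase that removes channels from the membrane, with 36.5 normalized reads in control hearts and 4.26 in *Arid1a cKO*. The most different peaks of *Ptpn3*, a phosphatase, of *Ank2*, an ankyrin that anchors membrane transporters, and of *Fgf14*, an intracellular FGF homologous factor that binds alpha subunits, had log2 differences of −3.08, −2.47 and −1.98. Those of *Slmap*, a membrane-associated protein of cardiac muscle, and of *Cav3*, the muscle caveolin, had −1.83 and −1.40. In the other direction, the most different peaks of *Sntb1*, a syntrophin, *Camk2d*, a kinase that phosphorylates the channel, and *Ank3* had log2 differences of 1.36, 1.25 and 1.19, with 4.99 to 6.63 normalized reads in controls. *Ank3* encodes ankyrin-G, which holds sodium channels at the intercalated disc. Some genes named for a lower peak had peaks at least 2-fold higher as well, whereas *Ptpn3*, *Fgf14* and *Slmap* had 0. *Sntb1*, named for a higher peak, also had 1 peak at least 2-fold lower, with a difference of −1.33. *Ank2* had 1, with 6.15 normalized reads in control hearts and 23.3 in *Arid1a cKO*, a log2 difference of 1.92. *Nedd4l* had 2, with differences of 1.10 and 1.41, and *Cav3* had 1, with 1.03.

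**Figure D4:**
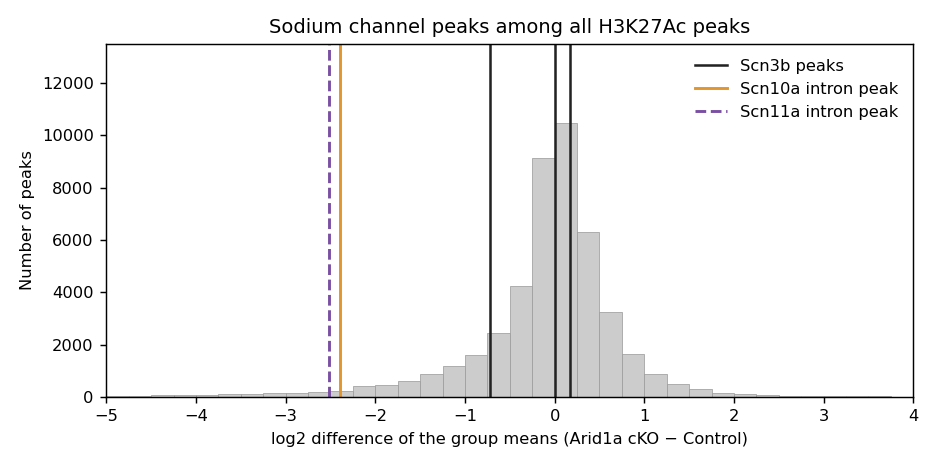
Grey bars count all peaks by the log2 difference of the group means (horizontal axis, *Arid1a cKO* minus control, from −5 to 4) in bins of 0.25, with peaks outside this range not drawn, and vertical lines mark the 3 *Scn3b* peaks at −0.72, 0.00 and 0.17, the *Scn10a* intron peak at −2.39 and the *Scn11a* intron peak at −2.52. The line at −0.72 lies below the 25th percentile of all peaks (−0.33), the lines at 0.00 and 0.17 lie between that and the 75th (0.30), and both intron peaks lie below the 5th (−1.70).

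Markers of cell types in the ventricle were compared in the same way, by the reads summed over the peaks of each gene. All 8 cardiomyocyte markers, among them *Myh6*, *Tnnt2* and *Actn2*, had a peak over a start, and their log2 ratios ran from −0.46 to 0.28, with 6 of 8 below 0. Together they had 21600 normalized reads in controls and 19300 in the cKO mean. All 6 fibroblast markers had higher sums in *Arid1a cKO*, with log2 ratios from 0.25 to 0.58, and together 3260 and 4380 reads. The 5 endothelial markers had ratios from −0.03 to 0.22 and together 10700 and 10900 reads. Of 4 macrophage and leukocyte markers, 3 had peaks and *Adgre1* had none, with ratios from 0.19 to 0.88 and together 105 and 154 reads. Of 7 neuron and Schwann cell markers, 3 had peaks, among them *Th* with a ratio of −0.58 and *Prph* with 0.07, and *Chat* and *Sox10* were among the 4 without a peak. Of 6 conduction system markers, 3 had peaks, all with lower sums in *Arid1a cKO*, and *Cacna2d2*, *Cntn2* and *Tbx3* had none. *Hcn4*, the pacemaker channel, had 108 summed reads in controls and 41.7 in *Arid1a cKO*, a log2 ratio of −1.37, *Gja5* had a ratio of −0.27 and *Irx3* of −0.47. The part of these cell types in the values at *Scn3b* and in the *Scn10a* locus was not tested.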

How the data were processed

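H3K27Ac ChIP-Seq was analysed from 2 control and 2 *Arid1a cKO* ventricle samples, with 2 inputs for each genotype. Reads had been aligned by the authors to mm10 (BWA 0.7.17-r1188), and peaks called in HOMER's histone style over the merged inputs of all samples. The authors compared the groups over peaks present in at least 2 samples, using DESeq2 1.24.0 within DiffBind 2.12.0. Versions are those of the submitters' processing notes. The deposited values are log2 mean normalized read counts per peak, for all samples and for each group. How libraries were scaled, and whether input was subtracted from the read counts, are not given in the sources used here. The table also holds the authors' fold changes, p-values and FDRs, which were not used. The deposited overall mean equals the mean of both groups to within 0.01.

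Differences are *Arid1a cKO* minus control on the log2 scale, and reads are 2 raised to the log2 mean. A difference of at least 2-fold is a limit of size, not a test. Group means at or under 3 reads were treated as a floor. The centre of each peak was assigned to the nearest start among 45756 curated RefSeq transcripts of GRCm38.p6, the assembly of mm10. Peaks on all 21 chromosomes ended inside the reference, and 7 peaks on unplaced sequence had no gene. Gene sums add the reads of all peaks assigned to a gene. Motifs were searched on both strands; a palindrome was counted once.

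The 3 genes and the lists were chosen with earlier results of these data known. The names given are the 3 genes, neighbours with peaks within 200 kb, sodium channel genes with peaks, up to 10 partner genes with a peak at least 2-fold different, and channel genes by likeness or by the 5 lowest and 3 highest sums among genes with at least 100 reads in a group. A few genes of these lists are not reported here. Assignment and motif search were tested on simulated data. Python 3.11.15, numpy 2.4.6, pandas 2.3.3 and matplotlib 3.10.9 were used.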

Additional observations from a re-analysis of the deposited data

How the results depend on the processing

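No paired analysis was possible because the table holds group means only, and for the same reason no replicate could be left out. The count of peaks at least 2-fold lower at *Scn3b*, *Scn10a* and *Scn4b* stayed at 0 under the other ways to assign peaks by their nearest start. It was also 0 under a 4-fold limit, and after centring, a pseudocount of 5 reads or raising means to 3 reads. These settings could not have raised it. A stricter limit or a pseudocount cannot add peaks to such a count. The lowest mean of the 3 peaks was 14.2 reads, and centring moved differences by only 0.01. The count became 1 with a limit of 1.5-fold, which the weakest *Scn3b* peak passes (17.3% of all peaks did), and 1 when peaks were taken by overlap with the gene body. That choice gave 1 peak in all in place of 3, the *Scn10a* intron peak. The count of peaks at least 2-fold higher was 0 under each of these alternatives, and the same settings could not have raised it. The pseudocount moved the weakest *Scn3b* peak from −0.72 to −0.56. The *Scn3b* total of −0.02 became 0.00 as a median over its peaks and −0.06 without the strongest peak. With the 1.5-fold limit (17.3% of all peaks lower, 12.0% higher), 2 peaks of the other sodium channel genes were lower and 1 higher of 7, of the partner genes 39 and 19 of 129, and of the ion channel and transporter genes 114 and 49 of 419. With protein-coding starts only, 19 of 176 partner peaks were at least 2-fold lower (10.8%, against 10.6% of all peaks). In the same setting 13 of 176 were at least 2-fold higher (7.39%, against 4.57% of all peaks). In whole peaks in place of central windows, the number of *Scn3b* peaks with a match went from 1 to 3 for T-box and for GATA, and from 0 to 1 for ESRR and for E-box. Of all whole peaks, 61.3% held a T-box, 60.1% a GATA, 36.6% an ESRR and 69.3% an E-box match. The depth of the libraries is unknown, and group means give no interval for any peak.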

Other observations

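Ion channel and transporter genes other than sodium channels were described by the same counts. Of 168 protein-coding genes taken by the symbols of these families, 103 were the nearest gene of 419 peaks. Of these peaks, 72 were at least 2-fold lower in *Arid1a cKO* (17.2%, against 10.6% of all peaks) and 18 at least 2-fold higher (4.3%, against 4.57%). The symbols also took in *Itprid2*, *Itpripl1* and *Itpripl2*, which are not themselves channel genes. They had 7, 1 and 5 peaks, of which 0 were at least 2-fold lower or higher. Among the 69 genes with at least 100 summed normalized reads in a group, the 3 lowest ratios belonged to potassium channel genes. *Kcnj3*, a subunit of the acetylcholine-gated channel of atrial and nodal cells, had 153 summed normalized reads in control hearts and 11.8 in *Arid1a cKO* over 3 peaks. *Kcnk3*, a background potassium channel gene, had 365 and 55.5 over 3 peaks, and *Kcnj12*, an inward rectifier gene, had 582 and 92.3 over 6 peaks, of which 5 were at least 2-fold lower. *Cacna1b*, a neuronal calcium channel gene, and *Gja3*, a connexin gene, followed with log2 ratios of −2.20 and −1.55. The highest ratios were those of *Cacnb3*, *Kcnk2* and *Kcnn1*, at 0.79, 0.67 and 0.67. These had 78.1, 87.1 and 91.1 summed reads in controls and 136, 139 and 145 in *Arid1a cKO*. Each gene named in this ranking reached 100 reads only in the group where it was higher. The limit and the ranking thus used the same sums, and the ranking describes these values only.

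Among the channel genes whose summed reads in both groups lay nearest to those of *Scn3b* were *Clcn2*, a chloride channel gene, and *Atp1b2*, a sodium pump subunit gene. Their Euclidean distances over the 2 log2 group sums were 0.0735 and 0.143. *Clcn2* had 189 summed normalized reads in control hearts and 182 in *Arid1a cKO*, against 181 and 178 for *Scn3b*. Likeness over a pair of group means rests on no replicate and describes these sums only.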
